A study of Rattus norvegicus with 8 samples.

Results

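The genes described here encode the enzymes of the tricarboxylic acid (TCA) cycle and of fatty acid oxidation, with a pair of transcriptional regulators of both pathways. They are a list of 37 symbols, and the rule that names them uses no measured value. Of these, 33 had a row under their symbol among the 27742 rows of the gene table: 12 of the TCA cycle, 19 of fatty acid oxidation and 2 regulators. The other 4, Cpt1b, Idh3b, Ogdh and Acaa1a, had none and were not analysed here. For testing, a row needed at least 1 FPKM (fragment density, scaled for transcript length and library size) in at least 4 libraries. In all, 12977 rows passed, among them 30 of the 33 genes, and Ehhadh, Ppara and Ppargc1a did not.

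Total RNA of the thoracic aorta of male, wild-type Sprague Dawley rats was sequenced after removal of ribosomal RNA. In the first group, 4 libraries came from rats injected subcutaneously with nitroglycerin (GTN), an organic nitrate that dilates vessels, at 100 mg/kg, with 3 injections per day over 3 days. Rats of the control group, also 4 libraries, received ethanol, the vehicle, on the same schedule. All rats are labelled as 12 weeks old and 180 to 200 g. The labels do not state that the libraries are from different animals or how many animals each holds, so p-values measure the spread between libraries, which may be partly technical. Their description of the RNA extraction mentions adipose tissue although the sample is given as aorta.

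In the TCA cycle, mitochondrial enzymes oxidize acetyl-CoA to carbon dioxide and pass electrons to the respiratory chain. Fatty acid oxidation supplies acetyl-CoA: long-chain acids are activated to acyl-CoA, carried into the matrix by the carnitine shuttle and shortened step by step in the beta-oxidation spiral. PPAR-alpha and its coactivator PGC-1 alpha are known to raise transcription of many of these genes. In the aorta, smooth muscle, endothelium and the fat around the vessel all express them, and brown fat does so very strongly.

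Aligned sequence was 6.77 to 8.39 Gb per nitroglycerin library and 7.48 to 8.86 Gb per control library, and read counts per gene were not analysed here. The 100 most abundant rows held 47.4 to 50.4% of the summed FPKM in nitroglycerin libraries and 51.7 to 71.4% in control libraries, with control replicate 1 the highest. FPKM is a relative unit, and most genes had higher FPKM with nitroglycerin: the median log2 difference, nitroglycerin minus control, over all 12977 rows was 0.30. After each library was rescaled by the median ratio of its genes to their geometric mean over libraries (median-of-ratios rescaling), that median was 0.012. A shift of this size touches every gene below, so log2 differences of single genes are given as deposited and after rescaling. FPKM values, means and sums are as deposited unless stated as rescaled. Genes whose log2 difference changed sign after rescaling, some of them described by means alone, are named in the closing section.

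None of the 30 tested genes differed between the groups at an adjusted p under 0.05 (limma on log2(FPKM + 1), Benjamini-Hochberg over 12977 rows), higher or lower, as deposited or after rescaling. Over all rows as deposited, 1.29% were called higher and 0.0616% lower. Rescaled values gave 0.0308% and 0.1%. As deposited, 16 of the 30 had an unadjusted p under 0.05 with a higher value in nitroglycerin libraries, where 34.1% of all rows did, and 0 had one with a lower value, where 1.02% did. After rescaling the counts were 0 higher and 1 lower, against 5.5% and 6.44% of all rows. The adjusted p of the 30 genes ran from 0.0543 (Idh2) to 0.856 (Cpt1a) as deposited and from 0.349 to 0.991 after rescaling.

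The direction was shared by nearly all genes as deposited and much less so after rescaling. As deposited, 29 of 30 genes averaged higher with nitroglycerin, all but Cpt1a, against 86.6% of all rows, and 25 lay above the all-row median. After rescaling, 24 of 30 were positive, against 52.4% of all rows. The median log2 difference of the 30 genes was 0.41 as deposited and 0.067 after rescaling, beside all-row medians of 0.30 and 0.012. In 12 of 30 genes every nitroglycerin library lay above every control library, against 24.2% of all rows. After rescaling this held for 0 of 30, against 3.78% of all rows. The reverse, every nitroglycerin library below every control library, held for 0 of 30 both as deposited and after rescaling, against 0.478% and 4.45% of all rows. In whole aorta, more cells of a type and more RNA per cell cannot be told apart.

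**Figure D1:**
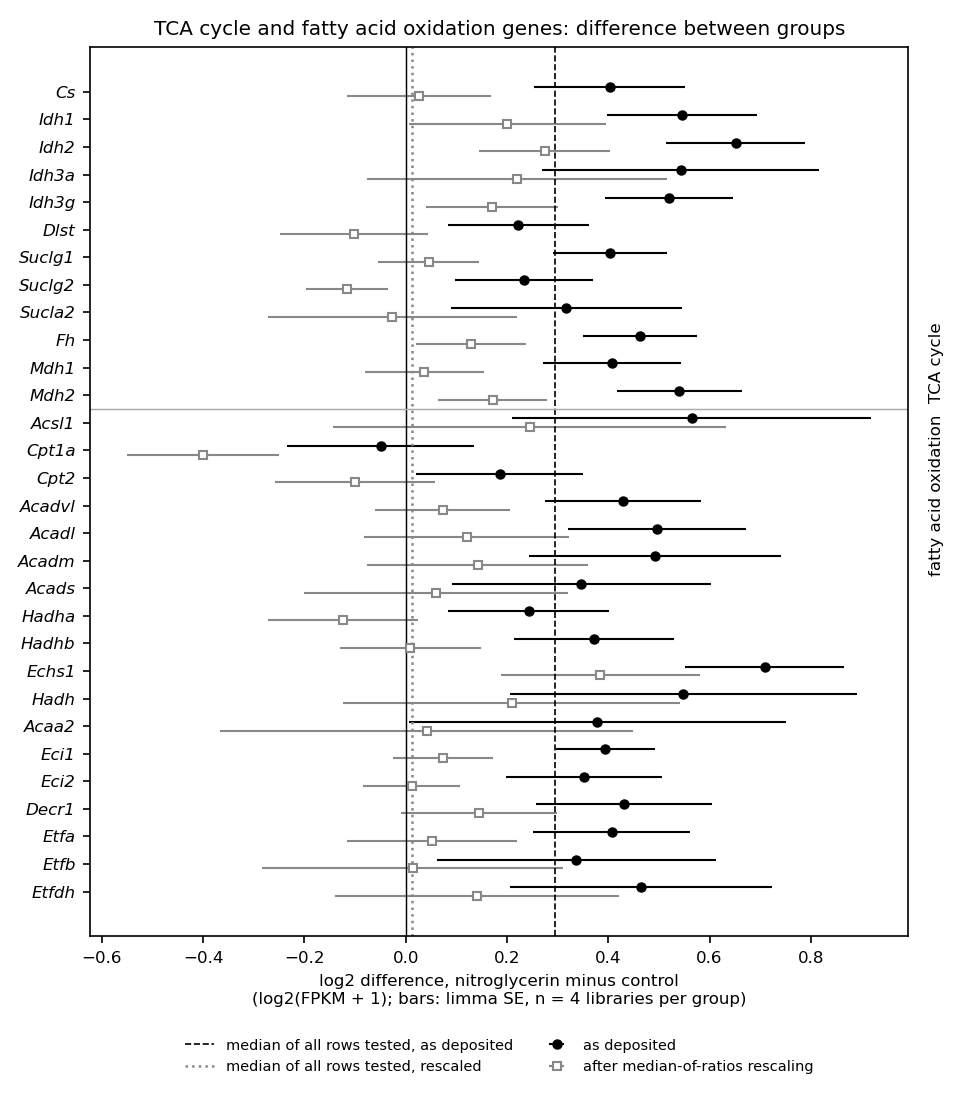
Log2 difference between nitroglycerin and control libraries (log2(FPKM + 1), with the limma standard error, n = 4 libraries per group) for the 30 tested genes, as deposited (filled circles) and after median-of-ratios rescaling (open squares). The vertical lines mark the all-row medians of 0.30 and 0.012. Most filled circles lie to the right of the dashed line, and the open squares spread around 0, with Cpt1a the lowest at -0.40.

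**Figure D2:**
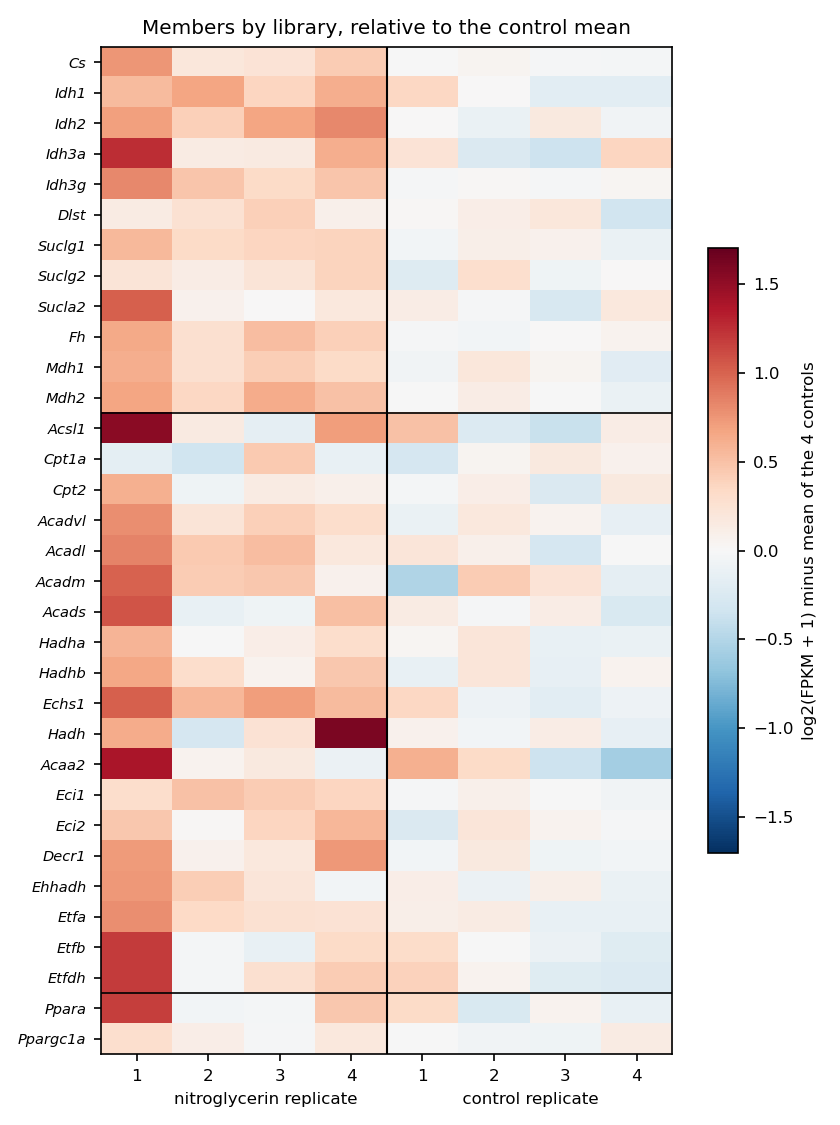
Each of the 33 genes with a row (down the page) in each library (across, nitroglycerin replicates 1 to 4 left of control replicates 1 to 4), as log2(FPKM + 1) minus the mean of the 4 control libraries. Nitroglycerin replicate 1 is the darkest red column in most genes, and Hadh is darkest in nitroglycerin replicate 4.

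The call depended on which rows entered the adjustment. With only the 10104 tested rows that include an annotated transcript, 6 of the 30 genes passed at adjusted p values between 0.0429 and 0.0481 (limma, Benjamini-Hochberg), in a fit that called 8.05% of its rows higher. They were Idh2, Echs1, Mdh2, Idh3g, Fh and Eci1. Idh2, Idh3g and Mdh2 also passed among rows with a mean of at least 5 FPKM, where 5.45% of rows were called higher. Idh2 alone of the 30 passed with robust variance shrinkage, where 1.52% were called higher, and without nitroglycerin replicate 2, where 2.05% were. None of the 30 passed with annotated rows after rescaling.

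Cs encodes citrate synthase, which joins acetyl-CoA to oxaloacetate at the entry of the cycle. It had 43.7, 29.4, 30.2 and 34.6 FPKM in nitroglycerin libraries, against 25.4, 26.4, 25.2 and 25.0 FPKM in control libraries. The groups did not overlap, and the control values lay within a narrow band while nitroglycerin replicate 1 stood highest. Means were 34.5 ± 6.55 and 25.5 ± 0.628 FPKM (SD, n = 4 each). The log2 difference was 0.40 (SE 0.15, limma with Benjamini-Hochberg adjusted p = 0.10), and 0.027 after rescaling.

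The NADP-dependent isocitrate dehydrogenases, which make NADPH, had the highest group median of any role in the cycle. Idh2, the mitochondrial enzyme, had 39.1, 31.7, 38.4 and 42.5 FPKM in nitroglycerin libraries, against 23.7, 21.8, 26.6 and 22.7 FPKM in control libraries. All 4 nitroglycerin values exceeded all 4 control values, and replicate 1 was not the highest. Its means were 37.9 ± 4.52 and 23.7 ± 2.12 FPKM (SD, n = 4 each), a log2 difference of 0.65 (SE 0.14, adjusted p of 0.0543 by limma). After rescaling, Idh2 had 33.8, 29.7, 32.3 and 34.9 in nitroglycerin libraries, against 32.0, 21.9, 29.3 and 25.1 in control libraries, so the groups overlapped. The rescaled log2 difference of Idh2 was 0.27 (SE 0.13, adjusted p of 0.454 by limma). Idh1, the cytosolic enzyme, had 9.32, 10.3, 8.15 and 9.86 FPKM in nitroglycerin libraries, against 8.09, 6.14, 5.27 and 5.26 FPKM in control libraries. Control replicate 1 came within reach of the lowest nitroglycerin library without crossing it. The log2 difference of Idh1 was 0.55 (SE 0.15, adjusted p of 0.0659 by limma), and 0.20 after rescaling.

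NAD-dependent isocitrate dehydrogenase, the regulated enzyme of the cycle, is built of alpha, beta and gamma subunits. Idh3g (gamma) had 13.2, 10.2, 9.14 and 10.3 FPKM in nitroglycerin libraries, against 6.97, 7.20, 6.98 and 7.26 FPKM in control libraries. The groups were apart, at 10.7 ± 1.77 FPKM in nitroglycerin and 7.10 ± 0.149 FPKM in control libraries (SD, n = 4 each). Its log2 difference was 0.52 (SE 0.13, adjusted p of 0.0598 by limma), and 0.17 after rescaling. Idh3a (alpha, catalytic) was more scattered, at 6.19 ± 2.82 FPKM in nitroglycerin and 3.79 ± 1.17 FPKM in control libraries (SD, n = 4 each; log2 difference 0.54, limma adjusted p = 0.182, and 0.22 after rescaling). Outside the rule by its spelling, a row named Idh3B had 14.9, 7.40, 9.04 and 10.7 FPKM in nitroglycerin libraries, against 6.87, 7.14, 6.82 and 6.14 FPKM in control libraries.

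The oxoglutarate dehydrogenase complex makes succinyl-CoA, and succinyl-CoA ligase turns that into succinate while forming a nucleoside triphosphate. Dlst, the succinyl-transferring subunit of the complex, had 5.15, 5.67, 6.38 and 4.92 FPKM in nitroglycerin libraries, against 4.63, 5.02, 5.38 and 3.47 FPKM in control libraries. These ranges overlapped, and the log2 difference was 0.22 (SE 0.14, adjusted p of 0.266 by limma) as deposited and -0.10 after rescaling. The row LOC103693780, described in the table as a mitochondrial 2-oxoglutarate dehydrogenase-like gene and outside the rule, had 14.6, 12.9, 13.5 and 13.3 FPKM in nitroglycerin libraries, against 10.2, 12.0, 11.7 and 11.8 FPKM in control libraries. Suclg1, the alpha subunit shared by both ligases, had 14.9, 12.5, 13.0 and 13.1 FPKM in nitroglycerin libraries, against 9.47, 10.6, 10.4 and 8.99 FPKM in control libraries. Its groups were apart, with a log2 difference of 0.40 (SE 0.11, adjusted p of 0.0669 by limma), and of 0.046 after rescaling. The nucleotide-specific beta subunits overlapped between groups. Suclg2 (GDP-forming) averaged 10.2 ± 0.866 FPKM in nitroglycerin and 8.59 ± 1.48 FPKM in control libraries. Sucla2 (ADP-forming) averaged 8.92 ± 3.69 and 6.67 ± 1.02 FPKM (SD, n = 4 each).

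Fumarase and the mitochondrial malate dehydrogenase close the cycle. With the cytosolic malate dehydrogenase, the groups were apart as deposited in all 3 genes, against 24.2% of all rows. After rescaling they were apart in 0 of 3, against 3.78% of all rows. Fh (fumarase) had 8.06, 5.99, 7.37 and 6.71 FPKM in nitroglycerin libraries, against 4.72, 4.63, 4.82 and 5.06 FPKM in control libraries. Mdh2 (mitochondrial) had 23.9, 19.0, 23.3 and 21.2 FPKM in nitroglycerin libraries, against 14.6, 16.1, 14.6 and 13.4 FPKM in control libraries. Mdh1 (cytosolic) had 26.7, 20.9, 23.1 and 21.7 FPKM in nitroglycerin libraries, against 16.4, 19.7, 17.7 and 14.9 FPKM in control libraries. Control replicate 2 was the control value closest to the nitroglycerin range in both malate dehydrogenases. The log2 difference was 0.46 (SE 0.11) for Fh, 0.54 (SE 0.12) for Mdh2 and 0.41 for Mdh1, with limma adjusted p of 0.0598, 0.0581 and 0.0858. After rescaling these differences were 0.13, 0.17 and 0.037.

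**Figure D3:**
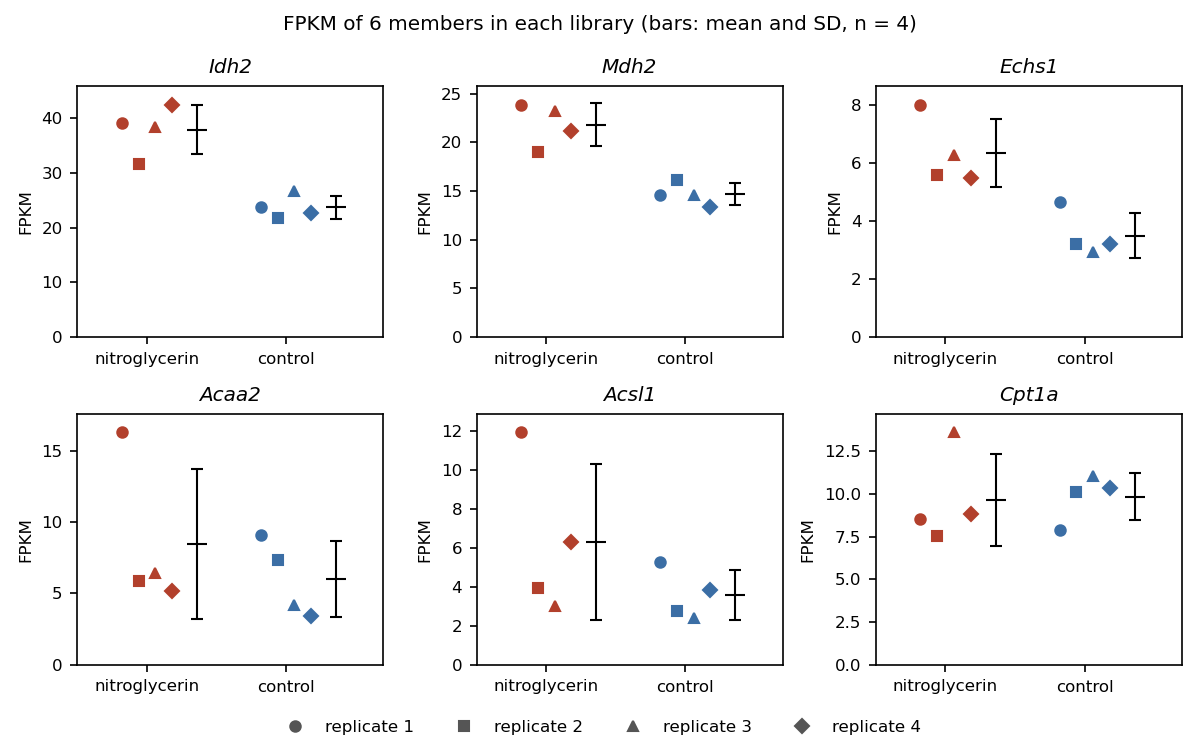
FPKM in each library for Idh2, Mdh2, Echs1, Acaa2, Acsl1 and Cpt1a, with nitroglycerin left of control in each panel, marker shapes for the replicate number and bars for the mean and SD (n = 4 each). Idh2, Mdh2 and Echs1 are apart between the groups, Acaa2 and Acsl1 are high in nitroglycerin replicate 1, and Cpt1a overlaps.

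Fatty acid oxidation begins with activation and the carnitine shuttle. Acsl1, a long-chain acyl-CoA synthetase abundant in fat and heart, had 11.9, 3.95, 3.01 and 6.31 FPKM in nitroglycerin libraries, against 5.29, 2.77, 2.41 and 3.85 FPKM in control libraries. Replicate 1 was the highest library of each group, and the ranges overlapped. The log2 difference of Acsl1 was 0.56 (SE 0.35, adjusted p of 0.266 by limma). It was 0.24 after rescaling, and also 0.24 as deposited without nitroglycerin replicate 1. Cpt2, the inner-membrane carnitine palmitoyltransferase, had 4.38, 2.36, 2.89 and 2.75 FPKM in nitroglycerin libraries, against 2.46, 2.82, 1.99 and 2.97 FPKM in control libraries. These also overlapped, with a log2 difference of 0.19 (SE 0.16, adjusted p of 0.416 by limma) as deposited and -0.10 after rescaling.

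Cpt1a, the outer-membrane carnitine palmitoyltransferase and a control point of the pathway, was the exception to the common direction as deposited. It had 8.56, 7.54, 13.6 and 8.83 FPKM in nitroglycerin libraries, against 7.87, 10.1, 11.0 and 10.3 FPKM in control libraries. Nitroglycerin replicate 3 held the highest value of all 8 and replicate 2 the lowest, and the groups overlapped. The log2 difference of Cpt1a was -0.05 (SE 0.18, adjusted p of 0.856 by limma). After rescaling it had 7.39, 7.07, 11.5 and 7.26 in nitroglycerin libraries, against 10.6, 10.1, 12.1 and 11.4 in control libraries. The rescaled log2 difference was -0.40 (SE 0.15), with the lowest p of the 30 genes on that scale, 0.0277 unadjusted and 0.349 adjusted (limma). Without nitroglycerin replicate 3 the rescaled difference was -0.54, with a limma adjusted p of 0.141, and without each of the other 7 libraries it was -0.44 to -0.34, with adjusted p of 0.401 to 0.574. A 2-exon lncRNA transcript of 1496 bases, MSTRG.1864.1, lies in an intron of Cpt1a at chromosome 1, 218574220 to 218575829, on the plus strand in the lncRNA table's coordinates, whose build is not given in the sources used here. It was the only 1 of 4686 lncRNA transcripts listed under a symbol of these genes, and overlap by position was not searched. Its FPKM was 0.180, 1.49, 1.16 and 0.936 in nitroglycerin libraries and 0.793, 0, 1.44 and 0.870 in control libraries, with overlapping groups.

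Acyl-CoA dehydrogenases take the first step of the spiral, each for its own chain length. Acadvl (very long chains) had 17.2, 11.2, 12.9 and 11.9 FPKM in nitroglycerin libraries, against 8.74, 10.9, 9.92 and 8.56 FPKM in control libraries. Acadl (long chains) had 42.3, 32.0, 33.8 and 26.4 FPKM in nitroglycerin libraries, against 26.9, 24.8, 18.8 and 23.1 FPKM in control libraries. Acadvl was apart between the groups by a small margin, and Acadl overlapped. The log2 differences were 0.43 for Acadvl and 0.50 for Acadl, with limma adjusted p of 0.0957 and 0.0940, and 0.073 and 0.12 after rescaling. Acadm (medium chains) averaged 12.6 ± 3.76 FPKM in nitroglycerin and 8.73 ± 2.69 FPKM in control libraries. Acads (short chains) averaged 3.46 ± 1.82 and 2.33 ± 0.416 FPKM (SD, n = 4 each). Nitroglycerin replicate 1 was the highest of the 8 libraries in all 4 dehydrogenases.

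Echs1, the short-chain enoyl-CoA hydratase of the second step, had the largest log2 difference of the 30 genes. It had 8.02, 5.61, 6.28 and 5.50 FPKM in nitroglycerin libraries, against 4.67, 3.21, 2.95 and 3.20 FPKM in control libraries. The groups were apart, and replicate 1 was the highest in each. Means were 6.35 ± 1.17 and 3.51 ± 0.784 FPKM (SD, n = 4 each), with a log2 difference of 0.71 (SE 0.16, adjusted p of 0.0573 by limma) as deposited and 0.38 (SE 0.20, adjusted p of 0.487 by limma) after rescaling. The other spiral enzymes overlapped between groups. Hadha, alpha subunit of the trifunctional protein that handles long chains, averaged 17.9 ± 3.44 FPKM in nitroglycerin and 14.8 ± 1.79 FPKM in control libraries. Its partner Hadhb averaged 16.3 ± 2.99 and 12.3 ± 1.56 FPKM. Hadh, the short-chain hydroxyacyl-CoA dehydrogenase, had 17.8 FPKM in nitroglycerin replicate 4 and 4.05 to 8.55 FPKM in the rest of its group, against 4.61 to 5.74 FPKM in control libraries. Acaa2, the thiolase of the last step, had 16.3, 5.87, 6.43 and 5.20 FPKM in nitroglycerin libraries, against 9.10, 7.32, 4.16 and 3.42 FPKM in control libraries. Its high value was again in nitroglycerin replicate 1. The limma adjusted p of Hadha, Hadhb, Hadh and Acaa2 ran from 0.132 to 0.463.

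Unsaturated acids need isomerases and a reductase. Eci1, an enoyl-CoA isomerase, had 5.13, 6.01, 5.70 and 5.40 FPKM in nitroglycerin libraries, against 3.89, 4.27, 3.98 and 3.80 FPKM in control libraries. The groups were apart with little scatter in either, and replicate 1 was the lowest nitroglycerin value. The log2 difference was 0.39 (SE 0.10, adjusted p of 0.0608 by limma), and 0.074 after rescaling. Decr1, the mitochondrial dienoyl-CoA reductase, had 4.38, 2.41, 2.69 and 4.44 FPKM in nitroglycerin libraries, against 2.16, 2.65, 2.09 and 2.14 FPKM in control libraries. Its groups overlapped through control replicate 2 (log2 difference 0.43, SE 0.17, limma adjusted p = 0.119, and 0.14 after rescaling). Eci2 averaged 8.29 ± 1.42 FPKM in nitroglycerin and 6.26 ± 0.942 FPKM in control libraries (SD, n = 4 each).

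Electron transfer flavoprotein carries electrons from the dehydrogenases to the respiratory chain. Etfa, its alpha subunit, had 16.5, 11.7, 11.0 and 10.9 FPKM in nitroglycerin libraries, against 9.81, 10.1, 8.24 and 8.25 FPKM in control libraries. The groups were apart, with a gap of under 1 FPKM, and nitroglycerin replicate 1 stood alone. The log2 difference was 0.41 (SE 0.15, adjusted p of 0.106 by limma), and 0.052 after rescaling. Etfb, the beta subunit, averaged 5.94 ± 3.22 FPKM in nitroglycerin and 4.17 ± 0.844 FPKM in control libraries. Etfdh, the ubiquinone oxidoreductase that takes the electrons on, averaged 6.04 ± 2.79 and 3.92 ± 1.02 FPKM (SD, n = 4 each). In nitroglycerin replicate 1 they had 10.6 and 10.1 FPKM, and at most 5.52 FPKM in the rest of that group.

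The regulators and the peroxisomal enzyme were near the floor of the measurement. Ppara (PPAR-alpha, the fatty acid-sensing nuclear receptor) had 2.65, 0.566, 0.579 and 1.22 FPKM in nitroglycerin libraries, against 1.03, 0.351, 0.692 and 0.492 FPKM in control libraries. Ppargc1a (PGC-1 alpha) had 0.362, 0.210, 0.102 and 0.265 FPKM in nitroglycerin libraries, against 0.117, 0.0715, 0.0638 and 0.233 FPKM in control libraries. Ehhadh, the peroxisomal bifunctional enzyme, had 1.29, 0.844, 0.594 and 0.330 FPKM in nitroglycerin libraries, against 0.490, 0.291, 0.475 and 0.275 FPKM in control libraries. In all 3 genes nitroglycerin replicate 1 was the highest library and the groups overlapped. Without the filter on low values their limma adjusted p were 0.527, 0.364 and 0.349. A second, assembled row under the symbol Ppara had 3.48, 0.897, 0.757 and 0 FPKM in nitroglycerin libraries and 1.02, 0, 0 and 0 FPKM in control libraries.

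Many of the high values lay in nitroglycerin replicate 1. It was the highest of the 8 libraries in 21 of the 30 genes (8 of the TCA cycle and 13 of fatty acid oxidation), against 16.7% of all rows, and again in 21 of 30 after rescaling, against 12.5%. In 7 genes it was at least 2-fold the mean of nitroglycerin replicates 2 to 4, against 3.07% of all rows. These were Acaa2 (2.79-fold), Acsl1 (2.70), Etfb (2.43), Acads (2.25), Etfdh (2.14), Idh3a (2.09) and Sucla2 (2.04). The genes of fatty acid oxidation stood further out than those of the TCA cycle, with medians of 1.41-fold and 1.18-fold. Their spread between nitroglycerin libraries was larger too, with a median coefficient of variation of 28.4% in nitroglycerin and 14.9% in control libraries, against 11.8% and 10.4% for the TCA cycle. Over all rows the medians were 19.1% and 22.6%.

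**Figure D4:**
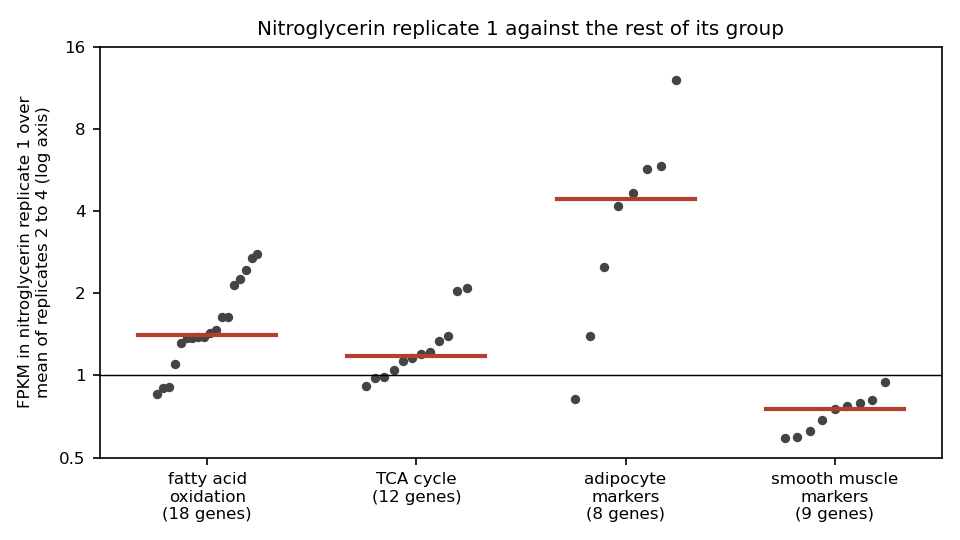
FPKM in nitroglycerin replicate 1 divided by the mean of nitroglycerin replicates 2 to 4 (log axis), 1 point per tested gene in order of size, with the median of each set as a red line. The medians are 1.41 for fatty acid oxidation, 1.18 for the TCA cycle, 4.43 for adipocyte markers and 0.755 for smooth muscle markers.

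Leaving out that library lowered the median log2 difference of the 30 genes to 0.31 as deposited and to -0.037 after rescaling. After rescaling, 10 of 30 were then positive, against 52.1% of all rows. The all-row medians without that library were 0.30 as deposited and 0.011 after rescaling. Within the TCA cycle the rescaled median without it was -0.006, and within fatty acid oxidation -0.074. Of the role groups, the NADP isocitrate dehydrogenases Idh2 and Idh1 had the highest median without it, 0.59 as deposited and 0.23 after rescaling. Control replicate 1 took a like place among controls after rescaling, being the highest control library in 26 of 30 genes, against 22.9% of all rows. Without replicate 1 of both groups, 17 of 30 were positive after rescaling, with a median of 0.035, beside an all-row median of 0.010.

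Adipocyte markers moved with the same library. Their summed FPKM was 170.4 in nitroglycerin replicate 1 and 38.2 to 43.5 in the rest of that group, against 25.1 to 46.3 in control libraries. Of 19 marker genes with a row, 15 were highest in nitroglycerin replicate 1. Among defining markers, Adipoq (adiponectin) had 15.0, 1.80, 0.417 and 0.981 FPKM in nitroglycerin libraries, against 0.796, 0.599, 0.197 and 0.0965 FPKM in control libraries. Plin1, which coats the lipid droplet, had 20.8, 2.54, 1.27 and 1.34 FPKM in nitroglycerin libraries, against 3.32, 2.45, 0.691 and 0.401 FPKM in control libraries. Ucp1, the uncoupling protein of brown fat, had 11.5, 0.269, 0.0300 and 0.447 FPKM in nitroglycerin libraries, against 5.10, 0.0854, 0.198 and 0 FPKM in control libraries. Ucp1 was thus high in replicate 1 of both groups. Ucp1, Cox8b, Elovl3, Dio2, Slc27a2 and Otop1 were listed at 0 in at least 1 library. An adipocyte-marker score was the mean log2(FPKM + 1) of all 19 marker genes with a row, whether or not they passed the filter. The score was 1.52 ± 0.692 in nitroglycerin and 1.04 ± 0.250 in control libraries (SD, n = 4 each, two-sided exact permutation p = 0.200). With this score as a covariate, the median log2 difference of the 30 genes was 0.27 as deposited and -0.098 after rescaling. The all-row medians with the covariate were 0.32 and 0.0099. The part of adipocyte RNA in the differences between groups was not tested beyond this fit and the fits without replicate 1.

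Other cell types were measured the same way. Smooth muscle markers, which define the aortic wall, summed to 1500 to 2936 FPKM in nitroglycerin libraries, with replicate 1 the lowest, and to 2415 to 3124 FPKM in control libraries. Skeletal and cardiac muscle markers summed to 19.1 to 27.8 FPKM in nitroglycerin and 26.3 to 40.3 FPKM in control libraries. Endothelial markers summed to 53.0 to 67.8 FPKM in nitroglycerin and 29.4 to 55.2 FPKM in control libraries. For macrophage markers the sums were 43.8 to 61.3 and 27.6 to 37.9 FPKM, in the same order. For fibroblast markers they were 322 to 418 and 250 to 520 FPKM. Smooth muscle markers had a median log2 difference of -0.23 as deposited and -0.62 after rescaling. Of the 9 tested, 0 were called by limma on either scale. After rescaling, 5 were lower and 1 higher at a limma unadjusted p under 0.05, against 6.44% and 5.5% of all rows. The rescaled median log2 differences of skeletal and cardiac muscle, endothelial, macrophage and fibroblast markers were -0.30, 0.15, 0.22 and 0.019. As deposited these medians were -0.046, 0.46, 0.54 and 0.39. Esam among endothelial and Cd163 among macrophage markers were called higher as deposited, at limma adjusted p of 0.0413 and 0.0492, and Ckm, the muscle creatine kinase, fell at 0.0492. Of these 3, Ckm alone was also called after rescaling (limma adjusted p = 0.0351).

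Together the 33 genes took 0.273, 0.193, 0.195 and 0.195% of the summed FPKM in nitroglycerin libraries, against 0.127, 0.165, 0.158 and 0.137% in control libraries. The groups did not overlap in this share, and control replicate 1, in which the most abundant rows held the most, was the lowest. After division by the library sum, the median log2 difference was 0.50 for the tested genes of this list and 0.43 for all rows. A higher value on this scale was thus typical of all rows, not of these genes alone. Nitroglycerin replicates 2 to 4 had nearly equal shares, both in the TCA cycle, at 0.101%, and in fatty acid oxidation, at 0.0918 to 0.0932%. The corresponding control shares were 0.0624 to 0.0821% and 0.0644 to 0.0845%.

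Ratios of related enzymes within a library do not depend on how that library is scaled, and 5 such ratios were tested for a difference between the groups with a two-sided exact permutation test, whose smallest possible p is 0.0286. Mdh2 over Mdh1, the mitochondrial over the cytosolic enzyme, was 0.895, 0.908, 1.01 and 0.976 in nitroglycerin libraries, against 0.887, 0.819, 0.823 and 0.901 in control libraries. The groups overlapped by 1 library on each side (log2 difference 0.14, exact permutation p = 0.0571, 0.286 adjusted over 5 ratios). Idh2 over Idh1 was 4.20, 3.08, 4.71 and 4.31 in nitroglycerin libraries, against 2.93, 3.55, 5.06 and 4.31 in control libraries (exact permutation p = 0.857). Hadha over Hadhb averaged 1.10 ± 0.123 and 1.21 ± 0.124 (exact permutation p = 0.286, SD, n = 4 each). Neither differed beyond the spread between libraries. Sucla2 over Suclg2 was 1.44 in nitroglycerin replicate 1 and 0.665 to 0.749 in the rest of its group, against 0.612 to 1.02 in control libraries (exact permutation p = 0.743). Idh3a over Idh3g averaged 0.560 ± 0.161 and 0.533 ± 0.161 (exact permutation p = 0.714, SD, n = 4 each).

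Other genes of the same pathways were compared in the same fit. Of 30 tested other genes of the TCA cycle and pyruvate entry, 0 were called by limma with Benjamini-Hochberg adjustment, 11 had a higher and 1 a lower value at an unadjusted p under 0.05 (0 and 2 after rescaling), and the median log2 differences were 0.35 (deposited values) and 0.040 (rescaled values). Of 41 tested other genes of fatty acid uptake and oxidation, 0 were called, 23 were higher and 0 lower at an unadjusted p under 0.05 (4 and 0 after rescaling), and the medians were 0.42 and 0.099. Pcca, the alpha subunit of propionyl-CoA carboxylase, came closest at a limma adjusted p of 0.0513. Of 21 tested regulators and targets of PPAR and PGC-1, 0 were called, 7 were higher and 0 lower at an unadjusted p under 0.05 (0 and 2 after rescaling), and the medians were 0.26 and -0.017. Of 72 tested nuclear genes for subunits of oxidative phosphorylation, 2 were called higher as deposited (Ndufb3 and Uqcrb) and 0 after rescaling, 38 had higher deposited values and 3 higher rescaled values at an unadjusted p under 0.05, and the medians were 0.42 and 0.083. Over all rows, 34.1% were higher and 1.02% lower at an unadjusted p under 0.05 as deposited, 5.5% and 6.44% after rescaling, and the medians were 0.30 and 0.012.

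As deposited, Idh2 had the lowest limma adjusted p of the 30 genes, and Cpt1a was the one gene without the common direction. The start of Hadha faces that of its partner Hadhb 300 bases away. For these reasons the promoter sequences of these 3 genes are shown. They are the 250 bases before the gene's start in RefSeq (build GRCr8), 5′ to 3′ on the gene's strand, with each GC box (GGGCGG on either strand) in capitals. Idh2 lies at chr1:143467249-143467498 (minus strand), Cpt1a at chr1:209995910-209996159 (plus strand) and Hadha at chr6:31907551-31907800 (plus strand).
Idh2: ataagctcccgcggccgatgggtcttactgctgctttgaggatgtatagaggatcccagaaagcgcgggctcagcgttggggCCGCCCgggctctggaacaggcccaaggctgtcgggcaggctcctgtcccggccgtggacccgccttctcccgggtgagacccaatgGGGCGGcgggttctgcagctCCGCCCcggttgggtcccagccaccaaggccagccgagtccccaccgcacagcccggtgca
Cpt1a: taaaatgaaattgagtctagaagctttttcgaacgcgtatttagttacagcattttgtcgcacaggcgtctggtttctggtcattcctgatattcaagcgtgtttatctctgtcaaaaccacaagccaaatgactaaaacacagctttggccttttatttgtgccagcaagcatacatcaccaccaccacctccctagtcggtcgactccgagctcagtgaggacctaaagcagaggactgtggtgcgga
Hadha: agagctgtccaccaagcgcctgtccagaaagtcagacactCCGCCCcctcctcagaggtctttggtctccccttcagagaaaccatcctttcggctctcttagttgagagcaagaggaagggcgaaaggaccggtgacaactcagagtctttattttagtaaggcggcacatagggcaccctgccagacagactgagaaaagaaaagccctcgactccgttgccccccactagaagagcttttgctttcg
The Idh2 window holds 3 GC boxes at a GC content of 68.8%, the Cpt1a window none at 45.6% and the Hadha window 1 at 53.6%. GGGCGG occurred in 19 of the 29 promoters of these genes that had an entry, Echs1, Mdh2, Cs, Fh and Eci1 among them, against 30.5% of 33469 rat promoters. Their median GC content was 60.8%, against 51.2%. Both backgrounds cover all 33469 promoters, and the promoters of tested genes alone were not compared. The letters TCAAGGTCA, bound by estrogen-related receptors, were in 0 of 29 and in 0.388% of all promoters. The direct repeat of AGGTCA with 1 base between, the DR1 form bound by PPAR with RXR, was in 0 of 29 and in 0.0508% of all. Both strands were searched in each case. Exact matches to these longer motifs were so rare over all promoters that 0 of 29 cannot tell these genes from others.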

How the data were processed

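RNA of 8 libraries was measured, 4 per group. Bowtie 0.12.2, StringTie 1.3.0 and HISAT2 2.0 are named in the submitters' processing notes, with the builds Rnor_6.0 and mm8, without their roles. The deposited gene table gives FPKM per row and library, and the lncRNA table FPKM, per-base coverage (signal) and coding-potential scores, per the file headers. Aligned gigabases were computed as coverage over FPKM.

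The rule for the genes uses symbols alone, but the genes, lists and tests were chosen with earlier results of these data known. Where a symbol had several rows, the one with the highest mean was used. Rows reaching 1 FPKM in 4 or more libraries were compared as log2(FPKM + 1) with limma 3.58.1 (R 4.3.3; mean-variance trend, Benjamini-Hochberg adjustment over all 12977 rows, threshold 0.05). Differences on this scale understate those of low genes. Showing rescaled values beside the deposited ones was decided after seeing the data. Python 3.11.15 with SciPy 1.17.1 and matplotlib 3.10.9 made the permutation tests and plots. The fit was tested on simulated data. Per-library values are given for genes with an unadjusted p under 0.05 (the 14 lowest) or the lowest p of their role, for Cs, Cpt1a and the regulators, and for Acaa2, Hadh, the Idh3B and LOC103693780 rows and the second rows, which were added after their values were seen. Adipoq, Plin1 and Ucp1 were chosen likewise. Alternatives covered the pseudocount, filters, scaling, the adipocyte-marker score as a covariate, the replicate number as a block, and each library left out. FPKM carries no counts, so counting intervals were not computed.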

Additional observations from a re-analysis of the deposited data

Results flagged for a closer look

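In 7 of 78 groups of 4 values, 1 library stood apart from the other 3 by Dixon's ratio, or 8.97%. Chance flags about 1 in 20 independent groups. These groups share libraries and genes, so they are not independent and the rates were not compared by a test. Nitroglycerin replicate 1 was the library in 5 of the 7. Its Sucla2 value was 14.4 FPKM, against 6.66 to 7.60 in the rest of the group. Acaa2 stood at 16.3 FPKM there, against 5.20 to 6.43, and Etfa at 16.5 FPKM, against 10.9 to 11.7. The adipocyte-marker score of that library was 2.55 (log2), against 1.07 to 1.24 in the rest. Its ratio of Sucla2 over Suclg2 was 1.44, against 0.665 to 0.749. Among control libraries, Echs1 was 4.67 FPKM in replicate 1, against 2.95 to 3.21, and Decr1 was 2.65 FPKM in replicate 2, against 2.09 to 2.16.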

How the results depend on the processing

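Of the 30 genes, 0 passed in any fit except 3 among rows with a mean of at least 5 FPKM, 6 with annotated rows only, 1 with robust variance shrinkage and 1 without nitroglycerin replicate 2. Over all rows, limma called 167 higher and 8 lower. The higher and lower counts were 7 and 0 with a pseudocount of 0.1, 4 and 13 after median-of-ratios rescaling, 3 and 0 after division by the library sum (3729 rows at an unadjusted p under 0.05), 3 and 1 with the adipocyte-marker score as a covariate, and 813 and 15 with annotated rows. No filter gave 19 and quantile normalization 5 higher. With the replicate number as a block both counts were 0, as deposited and after rescaling, with 4037 and 1611 rows at an unadjusted p under 0.05, and the block changed no call among the 30 genes. Samples with the same number, 1 to 4, had correlations of 0.133, -0.011, -0.012 and 0.121. Those with different numbers had -0.176 to 0.0875, so the values for numbers 1 and 4 lay above that range. The numbers were not taken as pairs, and a link between libraries of the same number was not tested further. After rescaling, the counts were 0 and 3 with the covariate (1197 rows at an unadjusted p under 0.05), 8 higher with annotated rows, and 7 and 13 without the filter. Each library left out moved the higher count by over 1.5 times, to 8, 266, 5 and 4 without nitroglycerin replicates 1 to 4 and to 9, 61, 6 and 4 without control replicates 1 to 4. After rescaling these fits gave 0 to 6 higher. The lower count was 0 to 20 over all fits that left libraries out, with 20 after rescaling without nitroglycerin replicate 2. Without replicate 1 of both groups the higher and lower counts were 1 and 0 (2591 rows at an unadjusted p under 0.05), and 2 and 5 after rescaling.

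The median log2 difference of the 30 genes was 0.067 after rescaling (also with the block or annotated rows), 0.14 after quantile normalization and -0.098 after rescaling with the covariate. Without the filter, the rescaled median over all 33 genes with a row was 0.074. Leaving libraries out gave -0.037 (rescaled, without nitroglycerin replicate 1) to 0.49 (without nitroglycerin replicate 2), and 0.035 after rescaling without replicate 1 of both groups. After rescaling, the sign turned in 5 of the 30 genes, namely Hadha, Sucla2 and Suclg2 (-0.12 to -0.026), Cpt2 (-0.10, also with the block, annotated rows or no filter, -0.28 with the covariate, and -0.12 after quantile normalization) and Dlst (-0.10 in all these rescaled fits and -0.087 after quantile normalization). Over all rows, 86.6% were positive as deposited and 52.4% after rescaling. The share of all rows whose sign turned was not computed for any of these fits. With rescaling and the covariate together the sign turned in 21 of 30. Beside Cpt2 and Dlst these were Acadl (-0.074), Acadvl (-0.093), Acsl1 (-0.25), Cs (-0.15), Decr1 (-0.0056), Etfa (-0.16), Mdh1 (-0.078) and Suclg1 (-0.040), and Acaa2, Acadm, Acads, Eci2, Etfb, Etfdh, Hadha, Hadhb, Idh3a, Sucla2 and Suclg2 (-0.51 to -0.029). Over the fits without a library, both scalings together, the range spanned 0 in 21 of 30: Acadvl (-0.045 to 0.50), Acsl1 (-0.073 to 0.80), Cpt1a (-0.54 to 0.046), Cpt2 (-0.23 to 0.27), Cs (-0.088 to 0.47), Dlst (-0.22 to 0.29), Etfa (-0.075 to 0.46), Mdh1 (-0.039 to 0.47), Suclg1 (-0.0069 to 0.44), and Hadh and the 11 genes just named without single values. Rescaling without replicate 1 of both groups turned 12 of 30: Acadvl (-0.0034), Cpt2 (-0.18), Cs (-0.0076) and 9 others (-0.14 to -0.0037), namely Acaa2, Acadm, Acads, Eci2, Etfb, Hadha, Hadhb, Sucla2 and Suclg2. Cpt1a was 4.2e-05 after division by the library sum and 0.063 with the covariate. Among ratios without 1 library, the log2 difference ran from -0.082 to 0.18 for Idh2 over Idh1, from -0.17 to 0.22 for Sucla2 over Suclg2 and from -0.086 to 0.22 for Idh3a over Idh3g. The causes were not tested.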
